A study of Mus musculus with 16 samples.

Results

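Meg3, Miat and Ftx are long non-coding RNAs (lncRNAs), long transcripts that are spliced and polyadenylated like messenger RNAs but are not known to be translated. They were taken because the annotation classes all 3 as long intergenic non-coding RNA genes, and they make up 3 of the 417 genes listed for the contralesional motor cortex. None of the 3 is among the 263 genes listed for the ipsilesional motor cortex, so their levels on the side of the lesion were not analysed here. The libraries came from 8 mice of strain C57Bl6 and hold primary motor cortex. All of these mice had a stroke, and no mouse without stroke is among them. The mice differ in how their movement recovered on a horizontal rotating beam. The recovered group holds animals 6, 23 and 28 (n = 3), which recovered spontaneously, and the non-recovered group holds animals 17, 19, 20, 21 and 29 (n = 5). The contralesional cortex is the motor cortex opposite the lesion, and each animal gave 1 library from it. The labels do not state age, sex, the way the stroke was made or the time of sampling.

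Meg3 is transcribed from the maternal copy of the imprinted Dlk1-Dio3 region and is abundant in neurons of the adult brain, where most of it stays in the nucleus. Miat, also called Gomafu, is a nuclear RNA of neurons that carries repeats of the letters TACTAAC, the sequence of the yeast splicing branch point, and binds the splicing factor SF1 through them. Ftx lies in the X inactivation centre, where it acts as a positive regulator of Xist, the RNA that silences an X chromosome in female cells, and its introns host microRNAs.

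The repeats that distinguish Miat are shown first, since the 3 RNAs share no such feature. The longest annotated Miat transcript (9163 bases, 7 exons, GENCODE M21) holds 6 copies of TACTAAC in transcript orientation, or 0.655 copies per kb. Of 29786 mouse genes whose longest transcript reached 1000 bases, 0.786% had as many or more copies per kb, and the median was 0. The longest Ftx transcript (4275 bases) holds 1 copy and the longest Meg3 transcript (14548 bases) holds 0. The 6 copies in Miat fall in a pair of stretches, given here 5′ to 3′ with the copies in capitals and positions counted from the transcript's start.
Miat transcript, positions 4931 to 5082: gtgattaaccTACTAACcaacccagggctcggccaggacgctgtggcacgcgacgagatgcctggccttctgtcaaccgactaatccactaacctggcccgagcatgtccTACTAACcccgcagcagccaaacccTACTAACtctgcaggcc
Miat transcript, positions 5579 to 5639: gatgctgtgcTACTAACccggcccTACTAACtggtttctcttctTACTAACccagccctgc

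The promoters are shown because the levels of the 3 RNAs varied together across libraries, as described further on. The windows run from 250 bases before to 50 bases after the start in RefSeq (GRCm38.p6), on the strand of the gene, and a further RefSeq start of Meg3 is not shown. Capitals mark matches to the cAMP response element TGACGTCA and to the TATA box letters TATAAA, both searched on both strands.
Meg3 promoter, chr12:109540746-109541045, plus strand: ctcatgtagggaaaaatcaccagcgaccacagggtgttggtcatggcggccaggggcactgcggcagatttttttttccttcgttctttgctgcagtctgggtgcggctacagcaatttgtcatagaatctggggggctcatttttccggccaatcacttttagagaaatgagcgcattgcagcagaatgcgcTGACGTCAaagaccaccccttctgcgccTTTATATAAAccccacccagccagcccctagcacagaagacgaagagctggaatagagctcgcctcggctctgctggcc
Miat promoter, chr5:112228899-112229198, minus strand: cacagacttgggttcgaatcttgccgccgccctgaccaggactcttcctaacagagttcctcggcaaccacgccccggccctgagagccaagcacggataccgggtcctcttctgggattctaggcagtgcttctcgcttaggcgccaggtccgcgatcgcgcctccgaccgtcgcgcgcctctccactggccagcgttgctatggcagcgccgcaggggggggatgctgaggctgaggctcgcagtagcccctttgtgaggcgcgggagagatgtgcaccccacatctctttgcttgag
Ftx promoter, chrX:103623705-103624004, minus strand: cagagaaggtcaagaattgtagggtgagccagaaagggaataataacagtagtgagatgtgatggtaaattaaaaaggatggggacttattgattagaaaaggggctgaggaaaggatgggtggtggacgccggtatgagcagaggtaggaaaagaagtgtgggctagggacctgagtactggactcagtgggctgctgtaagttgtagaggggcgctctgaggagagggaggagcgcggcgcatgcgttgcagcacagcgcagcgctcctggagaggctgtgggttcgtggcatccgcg
The Meg3 window holds 1 TGACGTCA, which starts 57 bases before the RNA's start, and 2 overlapping TATAAA matches on opposite strands, which start 29 and 25 bases before it. TGACGTCA was present in 1.79% and TATAAA in 13.6% of 32851 mouse promoter windows of the same length. Neither set of letters occurs in the Miat or Ftx window. The Miat window holds 25 CpG dinucleotides, against 13 in the Meg3 window and 12 in the Ftx window, and the median promoter holds 7. The 3 windows thus share neither motif searched. Most promoter windows lack both motifs, so this cannot tell whether the 3 promoters are regulated alike, which was not tested.

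Meg3 (ENSMUSG00000021268.17) covers chromosome 12 from 109541001 to 109571726 on the plus strand of mm10, with 11 annotated transcripts, and the microRNA genes Mir770 and Mir1906-1 lie within it on the same strand. Miat (ENSMUSG00000097767.8) covers chromosome 5 from 112213228 to 112229395 on the minus strand, with 6 transcripts. Ftx (ENSMUSG00000086370.9) covers chromosome X from 103560907 to 103623790 on the minus strand, with 12 transcripts, and the microRNAs Mir421 and Mir374b lie within it on the same strand. Each gene overlaps a lincRNA gene on the opposite strand, namely Gm26906 for Meg3, Gm26953 for Miat and Jpx for Ftx. The library kit keeps strand, but whether reads were counted by strand is not given in the sources used here, so reads of the opposite genes cannot be told apart from those of the 3 RNAs.

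Values are log2 CPM, the base 2 logarithm of counts per 1000000 reads, as deposited. The totals that the libraries were scaled by ranged from 17972790 to 27895466 reads, and the 417 listed genes held 1.47 to 1.56% of them. Why these genes were listed is not given in the sources used here, and 306 of the 417 had an unadjusted limma p under 0.05 in the comparison of recovered with non-recovered mice. If the list was chosen on these libraries, the p-values can be too small. No marker of excitatory neurons (0 of 9), oligodendrocytes (0 of 6), astrocytes (0 of 5) or microglia (0 of 8) is among the listed genes, so the cortex label could not be checked against the main cell types. For animals 6 and 23, the titles and the description codes of the libraries contradict each other across hemispheres. Both are recovered, and the numbers used here are those of the titles.

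Per kb of exonic sequence, Meg3 was the most abundant of the 3 in every library, followed by Miat and then Ftx. Meg3 had 13.5 ± 4.99 CPM per kb in recovered mice (SD, n = 3) and 18.4 ± 3.91 in non-recovered mice (SD, n = 5). Miat had 3.27 ± 0.918 CPM per kb in recovered and 4.301 ± 0.566 in non-recovered mice, and Ftx had 0.305 ± 0.0722 CPM per kb in recovered and 0.425 ± 0.0914 in non-recovered mice. The ranges over all 8 libraries did not meet, at 8.24 to 23.5 CPM per kb for Meg3, 2.26 to 5.14 for Miat and 0.222 to 0.549 for Ftx. Between the highest and the lowest library, CPM differed 2.85-fold for Meg3, 2.28-fold for Miat and 2.47-fold for Ftx.

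Meg3 was measured at 7.98, 7.22 and 8.36 log2 CPM in recovered animals 6, 23 and 28, against 8.11, 8.09, 8.22, 8.73 and 8.61 log2 CPM in non-recovered animals 17, 19, 20, 21 and 29. Animal 23 was the lowest and lay 0.76 log2 units below the next library, and non-recovered animals 21 and 29 were the highest. The groups overlapped, since recovered animal 28 exceeded non-recovered animals 17, 19 and 20. These values rest on 5563, 3815 and 5911 reads in the recovered libraries and on 6804 to 10680 reads in the non-recovered libraries. The mean level was 7.85 ± 0.58 log2 CPM in recovered mice (SD, n = 3) and 8.35 ± 0.30 in non-recovered mice (SD, n = 5). Meg3 was thus lower in recovered mice by a log2 fold change of -0.50 ± 0.25 (SE, 95% interval -1.06 to 0.07), or 0.709-fold, and this passed neither limma (p = 0.0794, Benjamini-Hochberg adjusted p = 0.0868) nor the exact permutation test (2-sided p = 0.196). In bulk tissue, fewer cells of a type that expresses an RNA and less of that RNA per cell cannot be told apart, and this holds for every level given here.

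Miat was measured at 5.04, 4.397 and 5.23 log2 CPM in recovered animals 6, 23 and 28, against 5.09, 5.27, 5.23, 5.58 and 5.40 log2 CPM in non-recovered animals 17, 19, 20, 21 and 29. Animal 23 was again the lowest, 0.64 log2 units below the next library, and animal 21 again the highest. Recovered animal 28 lay within the non-recovered range, while animals 6 and 23 lay below it. Reads per library numbered 721, 537 and 675 in recovered and 945 to 1156 in non-recovered animals. The mean was 4.89 ± 0.44 log2 CPM in recovered mice (SD, n = 3) and 5.31 ± 0.19 in non-recovered mice (SD, n = 5), a log2 fold change of -0.42 ± 0.18 (SE, 95% interval -0.84 to -0.01), or 0.745-fold. The unadjusted limma p was 0.0448, but the difference passed neither after Benjamini-Hochberg adjustment over the 417 genes (adjusted p = 0.0647) nor in the exact permutation test (2-sided p = 0.0536).

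Ftx was measured at 1.82, 1.23 and 1.89 log2 CPM in recovered animals 6, 23 and 28, against 1.86, 1.83, 2.05, 2.51 and 2.34 log2 CPM in non-recovered animals 17, 19, 20, 21 and 29. Animals 6 and 28 lay next to non-recovered animals 17 and 19, so the groups overlapped. Animal 23 lay 0.59 log2 units below the next library, and animals 21 and 29 were the highest. Its counts are the smallest of the 3, with 76, 58 and 65 reads in the recovered and 87 to 137 reads in the non-recovered libraries. The mean was 1.65 ± 0.36 log2 CPM in recovered mice (SD, n = 3) and 2.12 ± 0.30 in non-recovered mice (SD, n = 5), a log2 fold change of -0.47 ± 0.20 (SE, 95% interval -0.92 to -0.03), or 0.721-fold. The unadjusted limma p was 0.0398, and again the adjusted p (0.0618) and the exact permutation test (2-sided p = 0.125) were not past 0.05.

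**Figure D1:**
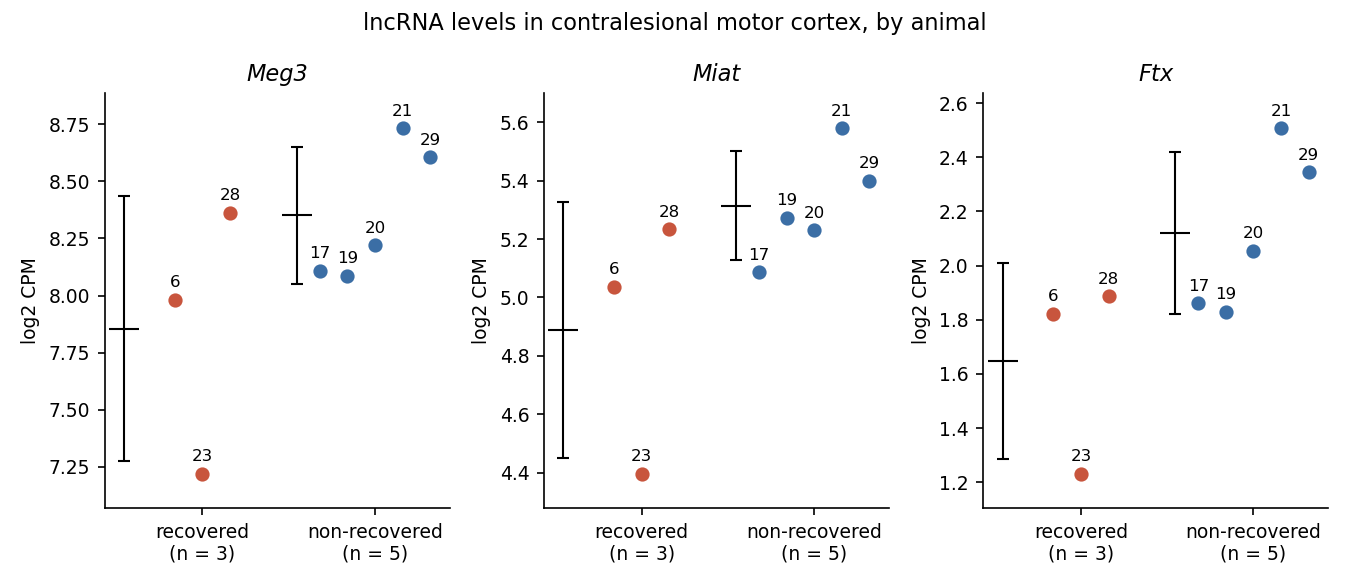
Levels of Meg3, Miat and Ftx in log2 CPM (vertical axes, which differ in range and do not start at 0) in the contralesional motor cortex, 1 point per animal, with the group mean ± SD at the left of each group. Recovered animal 23 is the lowest point in each panel (7.22, 4.397 and 1.23 log2 CPM), and recovered animal 28 lies inside the non-recovered range in each.

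All 3 RNAs were therefore lower in recovered than in non-recovered mice by similar amounts, and none of the 3 passed the adjusted threshold of 0.05. That threshold was passed by 6.00% of the listed genes in the direction of lower levels in recovered mice, that is by 25 of 417. With an unadjusted limma p under 0.05, 2 of the 3 were lower (Miat and Ftx), beside 47.7% of all listed genes. None of the 3 had every recovered library below every non-recovered library, a pattern present in 25.4% of listed genes. With all animals, their fold changes were large for the list. Of the 417 genes, 372, 342 and 366 had a smaller absolute log2 fold change than Meg3, Miat and Ftx, and the median absolute value was 0.26. These ranks include animal 23 and were not computed without it. Without animal 23, the log2 fold changes of Meg3, Miat and Ftx were -0.18, -0.18 and -0.26. Lower levels in recovered mice were common in the list, at 64.7% of its genes, with a median log2 fold change of -0.19. The SDs of the 3 RNAs were 0.36 to 0.58 log2 units among recovered and 0.19 to 0.30 among non-recovered animals.

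**Figure D2:**
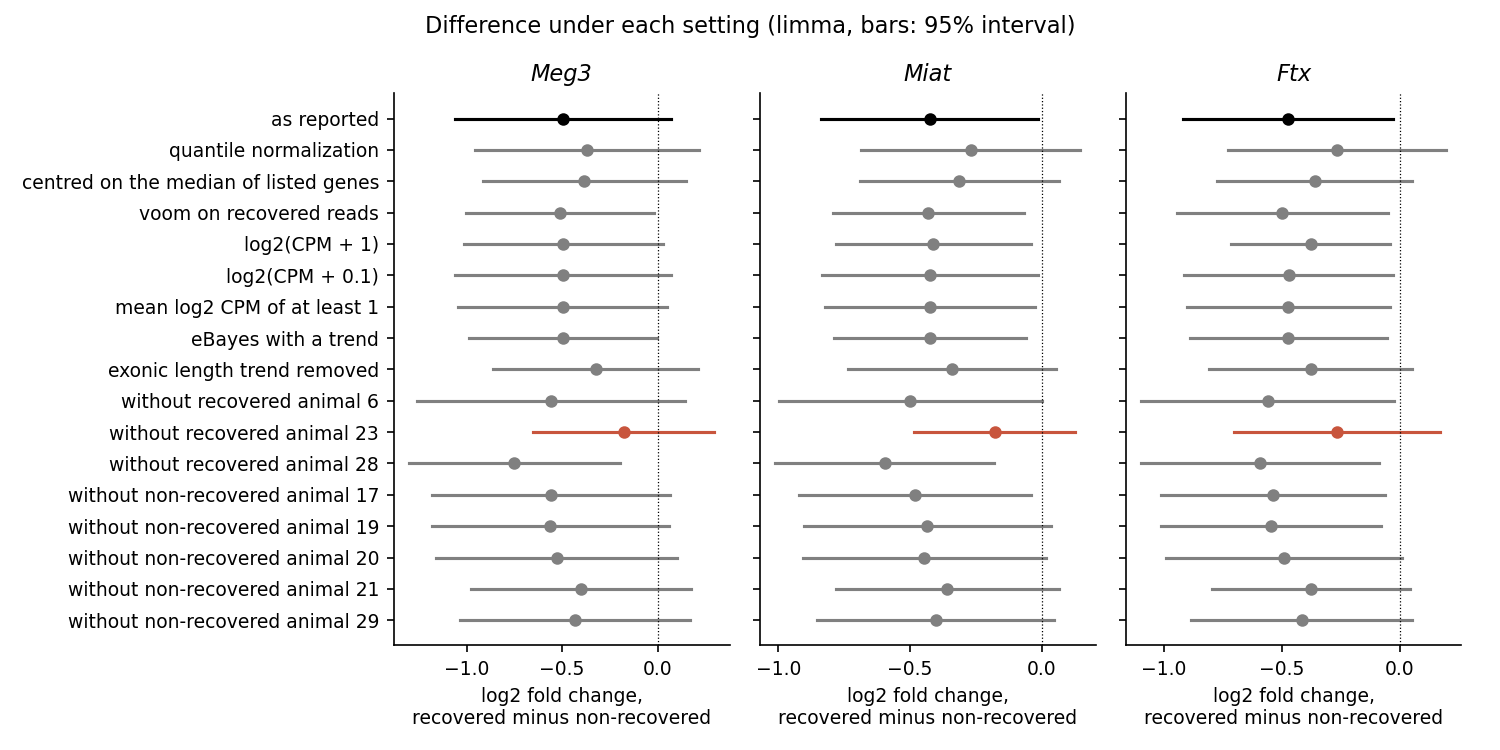
Log2 fold change of Meg3, Miat and Ftx, recovered minus non-recovered (horizontal axes), as reported at the top and under 16 other settings below it, with 95% limma intervals as bars. Every point lies below 0, and the values without recovered animal 23, drawn in red, are the closest to 0 for Meg3 (-0.18) and Miat (-0.18), and for Ftx (-0.26) they equal that of quantile normalization to 2 decimals.

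The size of each difference depended on animal 23, the lowest of the 8 libraries for all 3 RNAs. Without it, the log2 fold change was -0.18 for Meg3 (95% interval -0.65 to 0.30), -0.18 for Miat (-0.48 to 0.13) and -0.26 for Ftx (-0.70 to 0.17), with limma adjusted p of 0.410, 0.251 and 0.238. Exact permutation tests of the remaining 2 recovered against 5 non-recovered animals, which cannot give a p below 0.0476, gave 2-sided p of 0.524, 0.333 and 0.286. The values without animal 23 were thus 0.360, 0.420 and 0.560 of those with it, while the median of this ratio over the 417 genes was 0.862. Of the listed genes, 6.71% (28 genes) had a ratio under 0.5, Meg3 and Miat among them, and 35.3% had their lowest library in animal 23. Of the listed genes that were lower in recovered mice, 54.4% had their lowest library in animal 23. The description code of the library from animal 23 starts with SP2 and that of the 7 others with SP4, and what the prefix marks is not given in the labels. The values without animal 23 are therefore also those within the 7 SP4 libraries. Among these, the recovered animal was the lower one in 7 of 10 pairs of a recovered and a non-recovered animal for Meg3 and in 8 of 10 for Miat and for Ftx, against 12, 13 and 13 of 15 pairs with all animals. Without recovered animal 28, which had the highest level of the recovered group for each RNA, the log2 fold change was -0.75 for Meg3, -0.60 for Miat and -0.59 for Ftx, and no adjusted p was under 0.05.

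**Figure D3:**
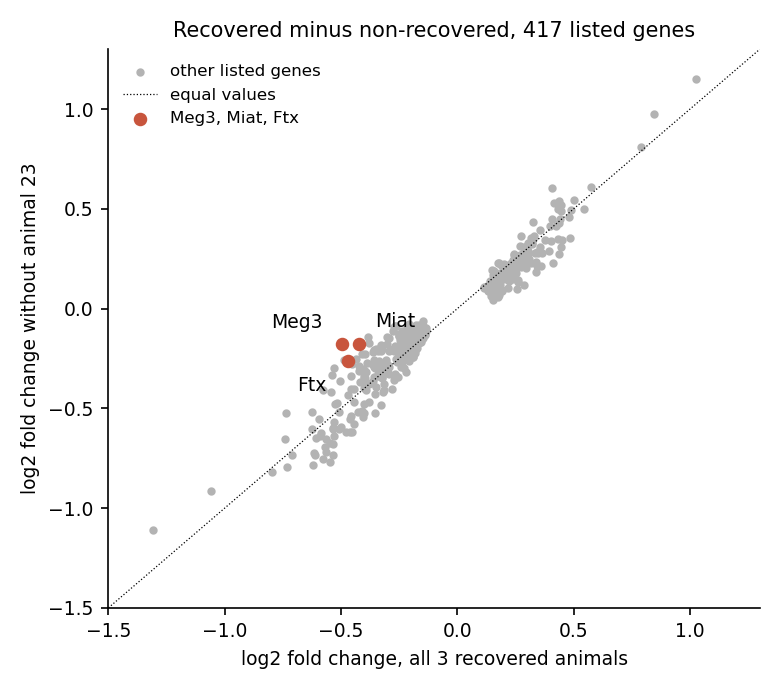
Log2 fold change of each listed gene, recovered minus non-recovered, with all 3 recovered animals (horizontal axis) and without animal 23 (vertical axis), with the line of equal values dotted. Meg3, Miat and Ftx (red) lie above the line, nearer to 0 without animal 23, and no listed gene changed sign.

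The 3 RNAs are long, and in the list long genes were lower in the library of animal 23. Exonic length is 18089 bases for Meg3, 10205 for Ftx and 9293 for Miat, against a median of 5236 bases over the 415 listed genes with a known length, and 5 listed genes are longer than Meg3, 62 than Ftx and 81 than Miat. Over the listed genes, the log2 level relative to each gene's mean changed per doubling of exonic length by -0.11 in animal 23, -0.045 in animal 28 and -0.016 in animal 6, and by 0.024 to 0.044 in the 5 non-recovered animals. The genes of the list may themselves have been chosen with these libraries, so the slopes describe the list and not all genes. With each library's slope removed, the log2 fold changes were -0.32 for Meg3, -0.34 for Miat and -0.38 for Ftx. The part of transcript length or RNA quality in the differences was not tested.

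The 3 RNAs varied together from library to library. Across the 8 libraries, Pearson's r was 0.97 for Meg3 and Miat (exact permutation p = 0.000422), 0.97 for Meg3 and Ftx (p = 0.000719) and 0.94 for Miat and Ftx (p = 0.000918), each with a Benjamini-Hochberg adjusted p of 0.000918 over the 3 pairs. Spearman's rho was 0.86 (exact permutation p = 0.0107, adjusted p = 0.0154), 0.98 (p = 0.000397, adjusted p = 0.00119) and 0.83 (p = 0.0154, adjusted p = 0.0154) for the same pairs. Leaving out the libraries farthest from the median of the first gene of each pair, those of animals 21 and 23, left r at 0.83, 0.86 and 0.75 (n = 6). Within the 7 SP4 libraries, without animal 23, r was 0.91, 0.93 and 0.89. The permutations behind the p-values of r and rho exchanged all 8 libraries regardless of group. A difference between recovered and non-recovered mice that the 3 RNAs share can therefore make those p-values smaller. How often other pairs of listed genes reached such an r across the 8 libraries was not tested. The deviations from the group means, which leave out that difference, correlated by 0.96, 0.95 and 0.90, and no p was computed for them. All values of a library share its total and its preparation.

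**Figure D4:**
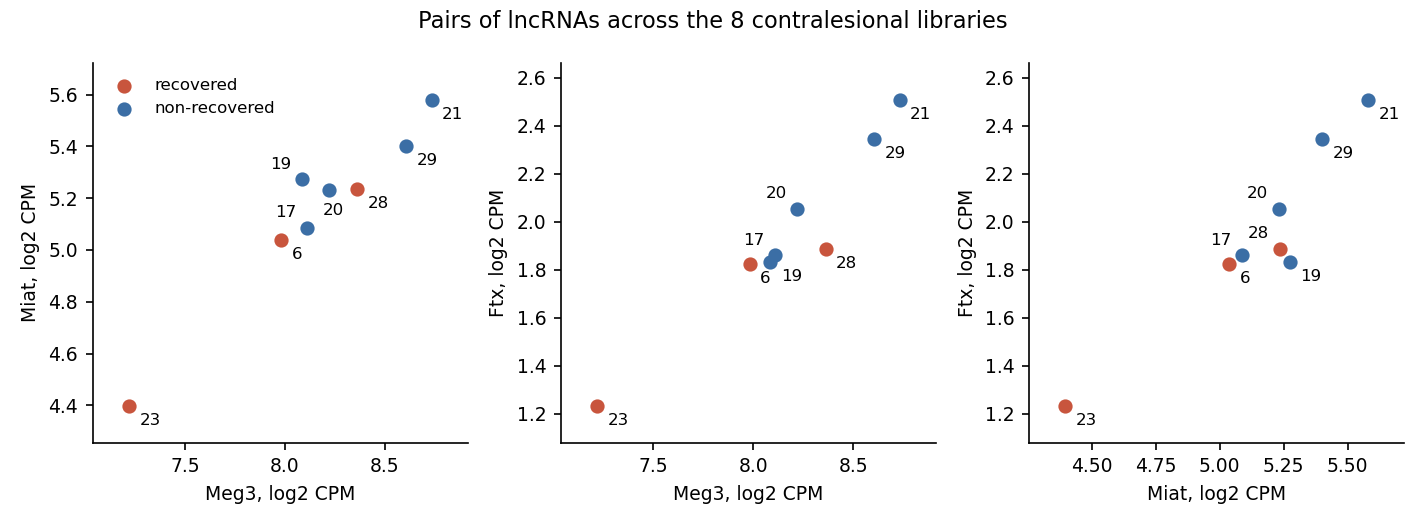
Each pair of the 3 RNAs in log2 CPM, 1 point per library, labelled by animal, with recovered animals in red and non-recovered animals in blue. Animal 23 lies at the lower left and animals 21 and 29 at the upper right of each panel, and the other 5 animals lie between them.

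The distances between the 3 RNAs differed between groups by less than the spread among animals. Meg3 exceeded Miat by 2.97 ± 0.15 log2 units of CPM in recovered mice (SD, n = 3) and by 3.04 ± 0.15 in non-recovered mice (SD, n = 5, exact permutation 2-sided p = 0.518). Meg3 exceeded Ftx by 6.21 ± 0.25 log2 units in recovered and 6.23 ± 0.04 in non-recovered mice (exact permutation 2-sided p = 0.732), and Miat exceeded Ftx by 3.24 ± 0.09 in recovered and 3.19 ± 0.16 in non-recovered mice (exact permutation 2-sided p = 0.643). Over the 8 libraries these distances spanned 0.39 to 0.49 log2 units, while the levels themselves spanned 1.18 to 1.51.

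The listed genes whose deviations from the group means were most like those of the 3 RNAs included further non-coding ones. For Meg3 they were Snhg11, the host transcript of a small nucleolar RNA (r = 0.99 over 8 libraries), Nav2, which encodes a neuron navigator protein of the cytoskeleton (r = 0.98), and Miat (r = 0.96). For Miat they were Nav2 (r = 0.98), Meg3 (r = 0.96) and Stk38, which encodes a kinase of the NDR family (r = 0.96). For Ftx they were Meg3 (r = 0.95), Snhg4, another small nucleolar RNA host (r = 0.94), and Hdx, a homeobox gene (r = 0.93). Without animal 23, the r of these 9 pairings was 0.91 to 0.97. For comparison, the median r with the other 416 listed genes was 0.07 for Meg3, 0.09 for Miat and 0.09 for Ftx, and 8, 10 and 9 of those genes reached an r of 0.9.

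The differences of these genes were in the same direction and of like or smaller size. Snhg11 had 6.67 ± 0.44 log2 CPM in recovered and 7.20 ± 0.20 in non-recovered mice (log2 fold change -0.53 ± 0.19, limma adjusted p = 0.0576), and without animal 23 the fold change was -0.30. Snhg4, with 27 to 56 reads per library, had 0.57 ± 0.21 log2 CPM in recovered and 0.95 ± 0.21 in non-recovered mice (-0.39 ± 0.13, limma adjusted p = 0.0576). Hdx (-0.39 ± 0.11), Stk38 (-0.23 ± 0.09) and Nav2 (-0.21 ± 0.10) had limma adjusted p of 0.0519, 0.0595 and 0.0711. Without animal 23, the log2 fold change was -0.32 for Hdx, -0.14 for Stk38, -0.11 for Nav2 and -0.27 for Snhg4. None of the 5 passed the adjusted threshold, and each had its lowest level in animal 23, as the plot of profiles by animal shows. The same held for 54.4% of the listed genes that were lower in recovered mice.

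**Figure D5:**
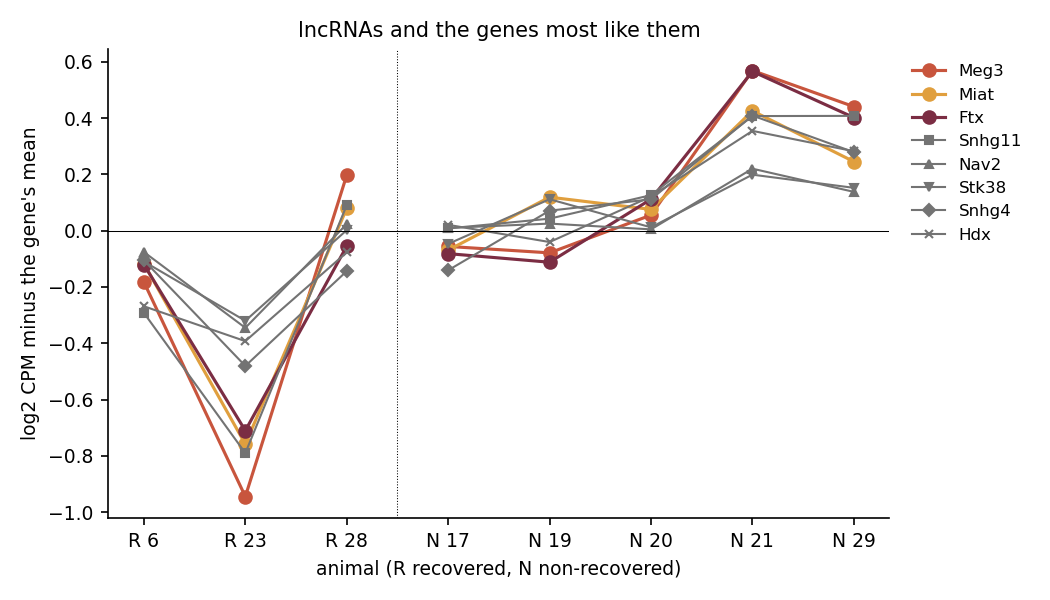
Log2 CPM of Meg3, Miat, Ftx (coloured) and the 5 other genes most like them (grey) minus each gene's mean over the 8 libraries (vertical axis), by animal (horizontal axis), with the recovered animals R at the left and the non-recovered animals N at the right of the dotted line. The profiles share a low point at animal 23 and a high at animals 21 and 29, and Nav2 and Stk38 span the narrowest range.

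A set of 43 gene names, nearly all of non-coding genes, was looked for. The 43 include every listed gene that an annotation classes as non-coding, so the share of the set that was listed is not a rate. The 6 listed were Meg3, Miat, Ftx, Snhg11, Snhg4 and the transcribed pseudogene Tmem181b.ps. RefSeq classes Snhg11 as a lncRNA and GENCODE M21 as protein coding. All 6 were lower in recovered mice, with a median log2 fold change of -0.48 against -0.19 over all listed genes. Without animal 23, their log2 fold changes ranged from -0.42 to -0.18, and the median over all listed genes was -0.13. With all animals, 5 of the 6 had an unadjusted limma p under 0.05. Over all listed genes, 64.7% were lower, 47.7% were lower with such a p, and 6.00% were lower with an adjusted p under 0.05. Tmem181b.ps was the 1 of the 6 that passed the adjusted threshold and fell in recovered mice, to 2.84 ± 0.30 log2 CPM against 3.38 ± 0.09 in non-recovered mice (-0.54 ± 0.12, limma adjusted p = 0.0469, and -0.42 without animal 23). No listed gene passed the adjusted threshold with limma's voom, with limma's trend or without animal 17, so Tmem181b.ps did not pass in these. As a pseudogene it can share reads with its parent gene. All 6 had their lowest library in animal 23, as did 54.4% of the listed genes that were lower in recovered mice. The nuclear RNAs Malat1, Neat1 and Xist were looked for and not among the listed genes, so their levels were not analysed here.

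The neighbours of the 3 genes and the proteins tied to them were mostly outside the list. Of 8 genes of the Dlk1-Dio3 region, Meg3 was the 1 listed. Of 12 gene names looked for at the X inactivation centre, Ftx and Chic1 were listed. Chic1 had a log2 fold change of -0.18 ± 0.08 (limma adjusted p = 0.0711, and -0.10 without animal 23). Of 10 proteins reported to bind Miat or Meg3, SF1 and Polycomb proteins among them, and of 8 paraspeckle and nuclear speckle proteins, 0 were listed.

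Few markers of other cell types were listed, and their levels are given beside those of the 3 RNAs. Of 12 markers of striatal projection neurons, 9 were listed and lower in recovered mice (5 with an unadjusted limma p under 0.05, 1 adjusted), beside 47.7% and 6.00% of all listed genes. Their summed level was 163.7 to 201.6 CPM in recovered and 208.4 to 263.3 CPM in non-recovered libraries, with animal 23 the lowest. Of single listed genes, 25.4% had every recovered library below every non-recovered one. Most of the sum came from Rasd2, Pde10a and Penk (6.56, 5.71 and 4.87 log2 CPM in recovered mice). Drd2, Pde10a and Rasd2 were lowest in animal 23, Gpr6 and Rxrg in animal 6 and Penk in animal 28. Adora2a, Syndig1l and Lrrc10b were lowest in non-recovered animal 29. Of 8 markers of meningeal fibroblasts, 3 were listed and lower, beside 64.7% of all listed genes. Their sums were 66.0 to 90.7 CPM in recovered and 88.1 to 104.4 CPM in non-recovered libraries. Mgp passed the adjusted threshold (limma adjusted p = 0.0469), and Islr (0.0809) and Fn1 (0.0893) did not. Of 4 globin genes, 2 were listed and higher, while 64.7% of all listed genes were lower. Their sums were 6.27 to 12.4 CPM in recovered and 3.01 to 6.85 CPM in non-recovered libraries. Of 4 ependyma and choroid plexus markers, Cfap65 was listed and higher, with 1.32 to 1.84 CPM in recovered and 0.980 to 1.12 CPM in non-recovered libraries (log2 fold change 0.49 ± 0.11, limma adjusted p = 0.0469). Of the 417 listed genes, 8 were higher past the adjusted threshold. Of 4 genes looked for as markers of oligodendrocyte precursors, Sox11 was listed, with 10.04 to 10.9 CPM in recovered and 11.5 to 15.9 CPM in non-recovered libraries. Its log2 fold change was -0.33 ± 0.11 (limma adjusted p = 0.0564), and it was lowest in animal 23. Such a separation of the groups was present in 25.4% of listed genes. Pdgfra, Cspg4 and Bmp4 were not listed, and Sox11 alone cannot stand for these cells. Sst was the 1 listed of 8 interneuron markers and had a log2 fold change of 0.14 ± 0.07. The part of these cell types in the levels of Meg3, Miat and Ftx was not tested.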

How the data were processed

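Messenger RNA of the contralesional primary motor cortex was sequenced from 8 mice, 1 library each, per the labels, which name a stranded kit. Tools named in the submitters' processing notes are STAR 2.5.1b, Trimmomatic 0.38, bcl2fastq and edgeR, and the build is mm10. How reads were counted and genes chosen for the list is not given in the sources used here. The authors deposited log2 CPM values with no fold changes. The values equal reads plus a prior count, over a scaled total plus 2 times that prior, as counts per 1000000. The prior count of 2 is scaled to each library's total, from 1.49 reads in animal 28 to 2.31 reads in animal 17. Solved for reads, 100% came out whole within 0.01. The scaled totals may include a normalization factor.

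Groups were taken from the titles, in which each library has its own animal. Recovered and non-recovered libraries were compared by limma 3.58.1 in R 4.3.3, fitted to the values as deposited without a filter. The p-values were Benjamini-Hochberg adjusted over all 417 listed genes. The fit was also run on simulated data, which had no outlying library and no choice of genes. That run therefore cannot show whether the p-values hold for these libraries. Exact permutation tests over animals (56 splits, smallest p 0.0179) used scipy 1.17.1. Exonic lengths and coordinates, counted from 1, came from GENCODE M21 (GRCm38), which matched 415 of 417 symbols, 2 of them by synonym. The members and gene lists were chosen with earlier results of these data known. Genes named are the 3 members, the listed genes of those lists, and for each member the 3 listed genes most alike by r of deviations from group means. Alternatives were quantile normalization, centring on the median, voom on the reads, other pseudocounts, a filter on low values, limma's trend, a length correction and leaving out each animal.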

Additional observations from a re-analysis of the deposited data

How the results depend on the processing

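Meg3, Miat and Ftx stayed lower in recovered mice, with a limma adjusted p over 0.05, under all 16 alternatives. Over the 8 that kept every animal, the log2 fold change ranged from -0.51 to -0.32 for Meg3, -0.43 to -0.27 for Miat and -0.50 to -0.26 for Ftx. Leaving out 1 animal gave -0.75 to -0.18, -0.60 to -0.18 and -0.59 to -0.26, with the values nearest 0 from leaving out animal 23 and at most -0.40, -0.36 and -0.37 from the others. The adjusted p ranged from 0.0556 to 0.410, 0.0515 to 0.251 and 0.0517 to 0.281.

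The count of listed genes past the adjusted threshold, 33 as reported (8 higher, 25 lower), was less stable. It was 77 with quantile normalization (70 higher, 7 lower), 152 with centring on the median of the listed genes (129 higher, 23 lower), which moved the median log2 fold change from -0.19 to -0.08, and 72 with the length trend removed (20 higher, 52 lower). It was 3 with log2(CPM + 1), 3 with a mean log2 CPM of at least 1, 0 with limma's voom (356 genes at an unadjusted p under 0.05) and 0 with limma's trend (360). Leaving out 1 animal gave 0 (limma, without animal 17, 233 genes unadjusted) to 74 (without animal 29). The cause was not tested. Ftx, at 58 to 137 reads, is the least precisely counted of the 3. No paired analysis was possible because recovered and non-recovered libraries come from different animals, and the comparison between hemispheres was not run because the 3 RNAs are listed on 1 side.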
